A study of Mus musculus with 6 samples.

Results

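The glutathione transferases (Gst and Mgst), UDP-glucuronosyltransferases (Ugt) and sulfotransferases (Sult) of mouse liver were taken as every protein-coding row whose symbol carries one of these family names with a class letter and number, or the Mgst stem with a number. This gave 66 of 41388 rows, of which 25 were Gst or Mgst, 20 Ugt and 21 Sult. RNA was read from liver of BALB/c mice, with tissue taken from each lobe. All mice had fibrosis induced with carbon tetrachloride (CCl4), a solvent that liver cells turn into a radical, for 5 weeks. In 3 libraries, called AL/NP, the mice had also received nanogels loaded with the bisphosphonate alendronate, at 4 mg/kg and 2 injections per week over the last 2 weeks. The other 3 libraries, called control, are labelled as untreated CCl4 livers and fibrotic controls. The protocol text on the alendronate injections stands on all 6 samples alike, so the groups rest on the titles and the treatment label. No library comes from a liver without CCl4 and none from mice given empty nanogels, so each comparison is between 2 fibrotic groups. The titles number the replicates without naming animals, so p-values measure the spread between these libraries, which may be technical in part. The labels give neither age nor sex. Xist, the transcript that silences 1 X chromosome in female cells, lay between 194 and 1141 CPM (counts scaled to a common library size, here by TMM) in the 6 libraries, while the means of the 4 Y-linked genes measured were at most 0.0766 CPM in either group.

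These enzymes carry out the conjugation step of detoxification. Glutathione transferases attach the tripeptide glutathione to reactive molecules, UDP-glucuronosyltransferases attach glucuronic acid to bilirubin, steroids and drugs in the endoplasmic reticulum, and sulfotransferases attach sulfate to phenols, catecholamines, steroids and bile acids in the cytosol. The products are more soluble and leave the hepatocyte through export pumps into bile or blood, and much of the genes' expression is set by hepatocyte factors such as HNF1 and by the sensors NRF2, AhR, CAR and PXR.

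To look for binding sites of such factors close to gene starts, promoters (GRCm38.p6) were read for the 58 members that RefSeq matched. Each promoter held the 250 bases before the RefSeq start and the 50 bases from it on. Sites farther from the start were not searched, so the shares below do not cover them. The 250 bases are shown for the member with the smallest unadjusted p in each family. These are Mgst3 (chr1:167393842-167394091, minus strand), Ugt2b36 (chr5:87092556-87092805, minus strand) and Sult1d1 (chr5:87569007-87569256, minus strand). Capitals mark GCGTG, the core of the AhR response element, or CACGC, its reverse complement, and GTTAAT, a short match to the motif of HNF1. All are written from 5′ to 3′ along the gene and end at the base before the start.
Mgst3: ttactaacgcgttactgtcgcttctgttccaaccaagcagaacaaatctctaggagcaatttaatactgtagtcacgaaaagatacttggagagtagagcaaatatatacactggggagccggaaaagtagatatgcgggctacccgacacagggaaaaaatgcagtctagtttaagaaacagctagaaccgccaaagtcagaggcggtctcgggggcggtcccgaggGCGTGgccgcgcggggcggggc
Ugt2b36: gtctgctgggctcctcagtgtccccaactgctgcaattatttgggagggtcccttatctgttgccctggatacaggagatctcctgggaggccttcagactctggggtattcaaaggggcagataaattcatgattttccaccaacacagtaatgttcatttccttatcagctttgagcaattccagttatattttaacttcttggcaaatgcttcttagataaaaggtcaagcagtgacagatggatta
Sult1d1: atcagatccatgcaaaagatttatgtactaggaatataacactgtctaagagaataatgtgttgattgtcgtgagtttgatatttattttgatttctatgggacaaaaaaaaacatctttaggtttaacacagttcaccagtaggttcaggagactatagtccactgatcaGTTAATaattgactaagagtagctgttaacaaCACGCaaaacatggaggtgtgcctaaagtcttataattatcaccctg

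Searched on both strands of the whole promoters, GTTAAT was found in those of 14 of the 58 members (24.1%). It was found in 7.31% of 17492 coding genes with a promoter of the same length. GCGTG was found in the promoters of 20.7% of members and 41.4% of all genes. In Gsta1 the match began 2 bases before the start and ran across it. TGACNNNGC, the core of the antioxidant response element that NRF2 binds, was found in the promoters of 6.9% of members and 14.8% of all genes. The members' promoters had a median GC content of 45.3%, and all promoters one of 56.3%, and the motif shares were not adjusted for it. These are matches of letters only, and members of one cluster share sequence by descent. The 30-base windows around GTTAAT show this in the Sult2a genes of chromosome 7, where the same run of letters follows the capitals, and show the different surroundings in Ugt genes and in Sult1d1.
Sult2a4 (chr7:13989678-13989707, minus strand): aaacaagagaatGTTAATgattttttacct
Sult2a5 (chr7:13623927-13623956, plus strand): acataagagaatGTTAATgattttttacct
Sult2a6 (chr7:14254924-14254953, minus strand): aaactagagaaaGTTAATgattttttaact
Sult1d1 (chr5:87569068-87569097, minus strand): gtccactgatcaGTTAATaattgactaaga
Ugt1a1 (chr1:88211906-88211935, plus strand): gcacaatcaatcATTAACtggttgcacagg
Ugt1a6a (chr1:88134747-88134776, plus strand): ccctcagcagtgATTAACaaacagaacaaa
Ugt1a9 (chr1:88070676-88070705, plus strand): tttaagtaaatcATTAACctgaatttaacg
In the Ugt1a windows the capitals read ATTAAC, since the match lies on the other strand.

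The libraries held between 30554483 and 39838428 counts, and the members took from 0.636% to 0.879% of them. Control replicate 3 stood apart: its TMM factor was 0.809, where the others lay between 0.937 and 1.13, and mitochondrial genes took 26.7% of its counts, where the others had 11.96% to 19.8%. Markers of hepatocytes were present in every library, and the labelled tissue matched them: the 10 markers summed to 57124 to 66900 CPM in AL/NP and 66753 to 86841 CPM in controls. The 10 periportal markers summed to 2524 to 3116 CPM in AL/NP and 3531 to 4614 CPM in controls, and the 10 pericentral markers to 347 to 442 CPM and 479 to 602 CPM. Macrophage markers, 9 of 10 with a positive fold change, summed to 430 to 742 CPM and 227 to 362 CPM. Neutrophil markers, 7 of 7 tested with a positive fold change, summed to 485 to 961 CPM and 214 to 292 CPM. No marker of these lists was at 0 in all libraries. Acute phase genes, 10 of 10 with a positive fold change, summed to 12507 to 15363 CPM and 5727 to 7743 CPM. The acute phase list shares Lcn2 with the neutrophil list and Fgb with the hepatocyte list, so these sums are not separate. In bulk liver, fewer hepatocytes and less RNA per hepatocyte cannot be told apart, and the part of these shifts in the values below was not tested.

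Of the 66 members, 51 had enough counts to be tested, and edgeR's quasi-likelihood test with Benjamini-Hochberg adjustment over 15939 genes called 0 of them, where it called 0.0816% of all genes. At an unadjusted p under 0.05 there were 12 lower members and 1 higher, 25.5% of the 51, beside 19.6% of all genes (10.3% lower and 9.37% higher). DESeq2 called 6 members, all lower, and 5.07% of the 16645 genes to which it gave an adjusted p (2.48% lower). The 6 were Mgst3, Gstm2, Gstt2, Gstt1, Sult1d1 and Sult2a8, and these 6 kept an unadjusted edgeR p under 0.05 when any 1 library was left out. The groups did not overlap in 12 lower members and 1 higher, where 15% and 14.5% of all genes did so, 29.5% in both directions together. The median log2 fold change was -0.16 over the 51 members, and 0.00 over all genes. In all, 35 of 51 had a fold change below 0, as did 50% of all genes.

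**Figure D1:**
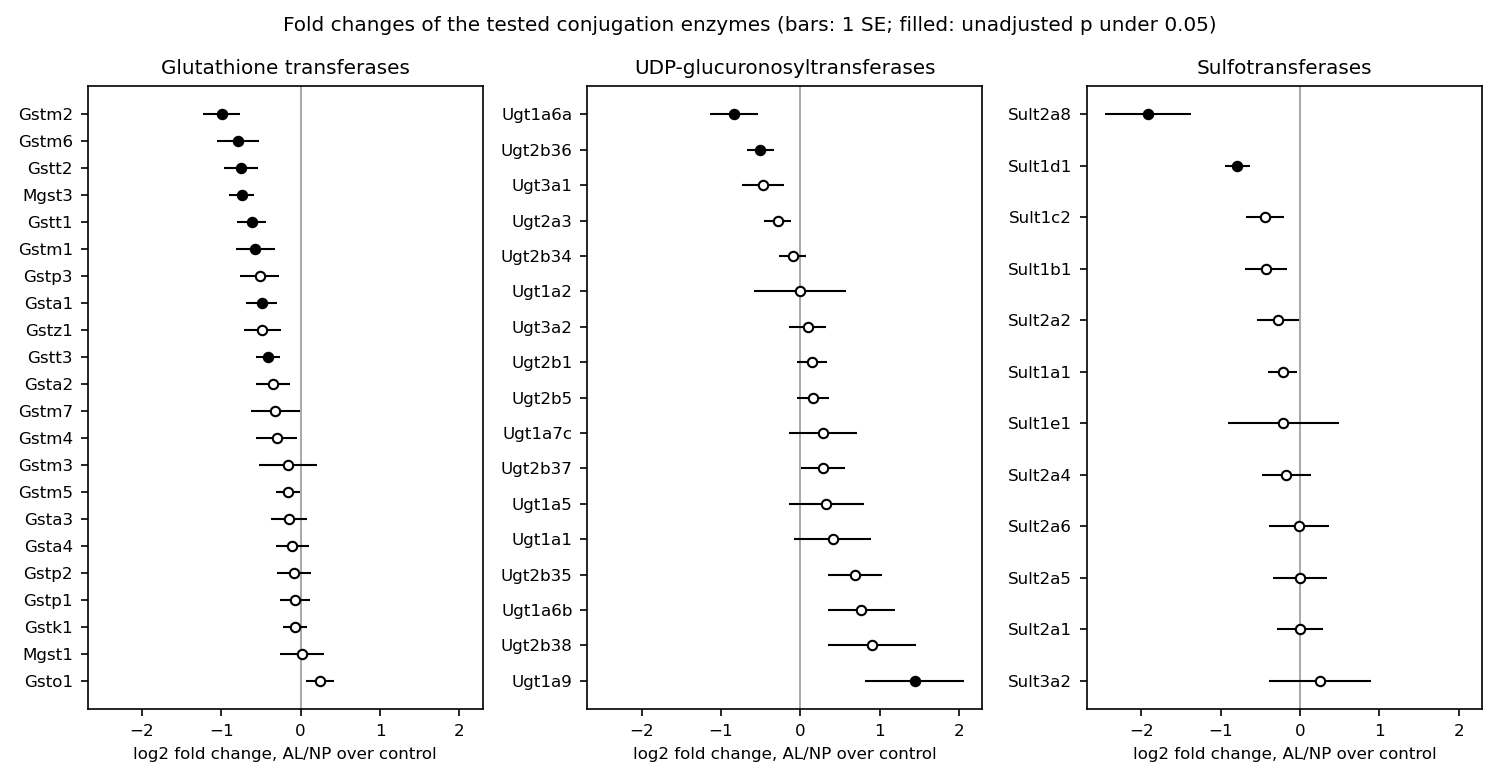
Log2 fold change of AL/NP over control for each tested conjugation enzyme, 1 panel per family, with bars of 1 SE from edgeR and filled points where the unadjusted p is under 0.05. Most glutathione transferases (20 of 22) lie left of 0, while 11 of 17 UDP-glucuronosyltransferases lie right of it.

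The other 15 members had between 0 and 77 counts over the 6 libraries together, and Sult1c1 and Sult6b2 had 0. They were 3 Gst or Mgst, 3 Ugt and 9 Sult genes. Levels were also taken per kilobase of exon, which adjusts for exon length but not for reads that match several genes. On this scale the pi class enzymes Gstp2 and Gstp1 had the highest mean levels of all members (963 and 957 CPM per kb). Gstm1 (591), the membrane-bound Mgst1 (559) and Gsta1 (262) followed. In the Ugt family Ugt2b5 (165 CPM per kb) and Ugt2b36 (163) led. Sult1a1 (129 CPM per kb), which sulfates small phenols, stood above Sult2a1 (39.7), which acts on hydroxysteroids. The 2 leading members held 49.0% of the summed per-kb level of the Gst family, 70.3% of the Ugt family and 73.4% of the Sult family. These ranks and shares depend on how shared reads were counted. Ugt1a1, for example, had 7.95 CPM per kb over all its exons and 19.4 over the length it does not share.

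**Figure D2:**
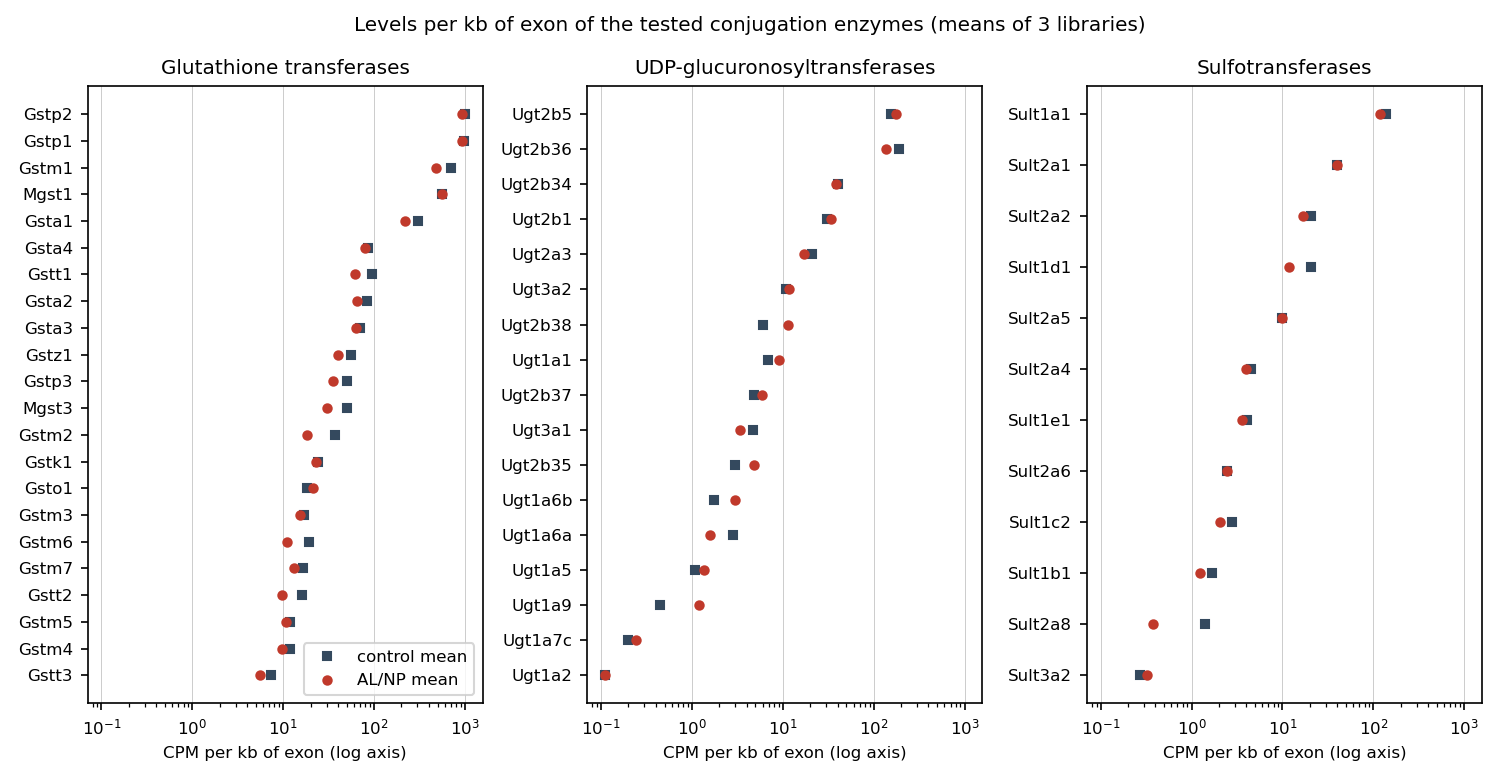
Mean level per kilobase of exon (CPM per kb, log axis) of each tested member in control (squares) and AL/NP (circles), means of 3 libraries. A few members in each family carry most of the signal, led by Gstp2 and Gstp1, Ugt2b5 and Ugt2b36, and Sult1a1.

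Among glutathione transferases, 20 of 22 tested members had a fold change below 0. The count at an unadjusted p under 0.05 was 8 lower and 0 higher (36.4% of 22, beside 19.6% of all genes), and the median log2 fold change was -0.33. In the other 14 members the unadjusted p was above 0.05, and in 15 of 22 the groups overlapped. The count of lower members was 4 with library totals in place of TMM, where 14.1% of all genes were under 0.05, and 4 of 23 without AL/NP replicate 1, where 13.7% were. Every member of the alpha (4), mu (7), pi (3) and theta (3) classes was below 0, and the exceptions were Mgst1 at 0.01 and Gsto1, of the omega class, at 0.24. Library totals also moved the median of all genes to 0.13 and left 16 of 22 below 0. Without control replicate 3 the count was 17 of 22, with a median of -0.25.

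Mgst3, a membrane-bound enzyme that reduces lipid peroxides with glutathione, had 33.2, 33.4 and 32.3 CPM in the 3 AL/NP libraries and 53.9, 47.1 and 64.5 CPM in the controls. Every AL/NP value lay below every control value, and the AL/NP libraries were nearly equal to each other. The log2 fold change was -0.74 (SE 0.154), with an unadjusted p of 0.00104 and an adjusted p of 0.103 in edgeR. DESeq2 gave an adjusted p of 0.00445.

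The mu class genes form a cluster on chromosome 3 and include enzymes for epoxides. Gstm2 (chr3:107981702-107986453, minus strand) had 21.2, 37.2 and 34.4 CPM in AL/NP and 68.3, 50.0 and 66.7 CPM in controls. The groups did not overlap, and AL/NP replicate 1 was the lowest. Its log2 fold change was -0.99 (SE 0.230), with an unadjusted p of 0.00205 and an adjusted p of 0.121 in edgeR.

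Gstm1, the most abundant of the class, had 532, 801 and 767 CPM in AL/NP and 1069, 767 and 1290 CPM in controls. Control replicate 2 lay among the AL/NP values. The log2 fold change was -0.57, with an unadjusted p of 0.0448, and without control replicate 3 it was -0.40 with an unadjusted p of 0.1225. Gstm6 had a log2 fold change of -0.79 (unadjusted p 0.0166) with overlapping groups, and -0.55 (unadjusted p 0.0628) without control replicate 3. The other mu genes, Gstm3, Gstm4, Gstm5 and Gstm7, ranged from -0.32 to -0.16.

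The theta class acts on small halogenated molecules and sits in a cluster on chromosome 10. Gstt1 had 97.8, 94.1 and 88.9 CPM in AL/NP and 129, 122.5 and 179 CPM in controls. Gstt2 had 37.5, 46.1 and 37.1 CPM against 51.1, 62.4 and 89.6 CPM. In both genes all AL/NP values lay below all control values, and control replicate 3 was the highest. The log2 fold change of Gstt1 was -0.62 (SE 0.180), with an unadjusted p of 0.00794 and an adjusted p of 0.150 in edgeR. That of Gstt2 was -0.75 (SE 0.217), with an unadjusted p of 0.00761 and an adjusted p of 0.148, and without control replicate 3 it was -0.50. Gstt3 had 19.7, 19.9 and 24.4 CPM against 27.2, 26.6 and 31.2 CPM. Its groups did not overlap either, at a log2 fold change of -0.41 and an unadjusted p of 0.0231. All 3 tested theta genes were thus lower at an unadjusted p under 0.05, while the fourth, Gstt4, had too few counts. For Gstt3 the unadjusted p in edgeR rose to 0.0928 with 1 library left out.

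The alpha class includes the main hepatic enzymes against lipid-derived aldehydes and hydroperoxides. Gsta1 had 220, 238 and 166 CPM in AL/NP and 310, 327 and 241 CPM in controls. The highest AL/NP value lay just under the lowest control value, and the log2 fold change was -0.49 with an unadjusted p of 0.0346. With 1 library left out, the log2 fold change of Gsta1 ranged from -0.62 to -0.35, and its unadjusted p in edgeR rose to 0.132. Of its 50-base words, 90.5% also occur in other genes, mostly Gm3776 and Gsta2, so its count depends on how the authors handled reads with several matches. Gsta3 had 216, 276 and 328 CPM in AL/NP and 363, 317 and 230 CPM in controls. These groups overlapped, with a log2 fold change of -0.15 (SE 0.223), which lay between -0.32 (without control replicate 3) and -0.0016 (without control replicate 1) when a library was left out; leaving out AL/NP replicate 1 gave -0.0069, and AL/NP replicate 3 gave -0.30. Gstz1, the zeta class enzyme of tyrosine breakdown, had 201, 193 and 217 CPM in AL/NP and 232, 221 and 400 CPM in controls, named here after its values were seen. Its groups did not overlap, but the log2 fold change of -0.48 (unadjusted p 0.0737) became -0.16 without control replicate 3, the highest library.

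For the pi class genes Gstp1 and Gstp2 and for Mgst1 the group means lay within the spread between libraries. Gstp1, a detoxifier of electrophiles, had 1529, 1592 and 1213 CPM in AL/NP and 1496, 1342 and 1719 CPM in controls. Gstp2, its neighbour on chromosome 19, had 1183, 1135 and 805 CPM against 1037, 962 and 1311 CPM. The groups overlapped in both genes, with log2 fold changes of -0.07 (SE 0.194) and -0.08 (SE 0.215). With library totals as the scaling the signs turned (0.07 and 0.06). They share 33.7% and 54.3% of their 50-base words with other genes, so reads could be split between them. The third pi gene, Gstp3, had 36.4, 33.4 and 27.2 CPM in AL/NP and 35.0, 38.4 and 65.2 CPM in controls, with overlapping groups and control replicate 3 highest. Its log2 fold change of -0.52 (SE 0.245, unadjusted p 0.0659) became -0.19 without that library, and it was named here after its values were seen. Mgst1, which protects membranes of the endoplasmic reticulum and mitochondria, had 1047, 1268 and 1076 CPM in AL/NP and 1354, 1348 and 657 CPM in controls. Control replicate 3 was the lowest of all and the other controls the highest, so the log2 fold change was 0.01 with that library and -0.26 without it.

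**Figure D3:**
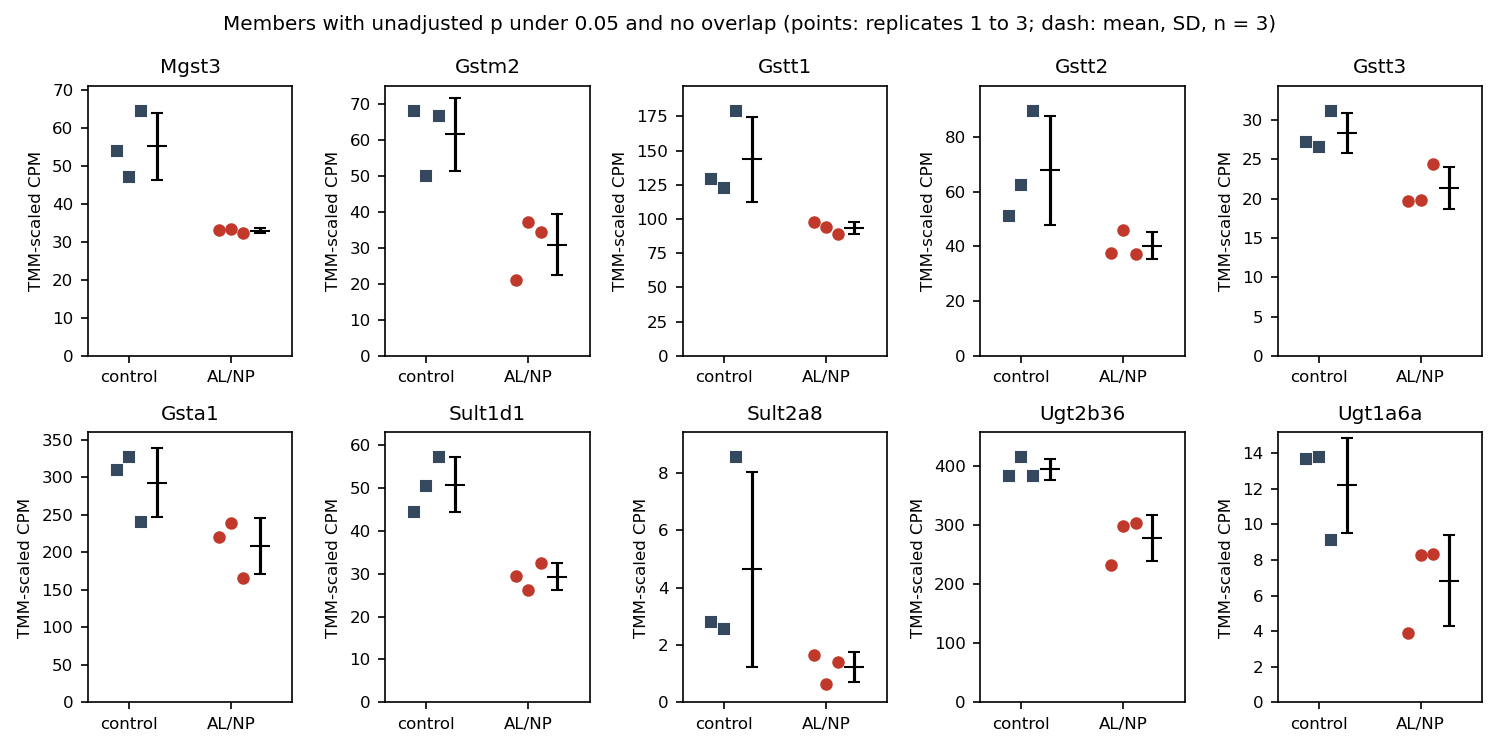
TMM-scaled CPM in each library for the 10 members with an unadjusted p under 0.05 and no overlap between groups, with the mean and SD of 3 libraries per group, on axes that start at 0. In each panel all AL/NP points lie below all control points, and for Gstt1, Gstt2 and Sult2a8 control replicate 3 is far above the other controls.

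UDP-glucuronosyltransferases did not share one direction. Of 17 tested members, 11 had a fold change above 0 and 6 below, with a median of 0.16. At an unadjusted p under 0.05 there were 2 lower, Ugt2b36 and Ugt1a6a, and 1 higher, Ugt1a9, together 17.6% beside 19.6% of all genes. Control replicate 3 was the lowest of the 6 libraries in 12 of the 17, including 6 of 7 Ugt1a and 5 of 7 Ugt2b genes. Without it the median was -0.02, 10 of 17 lay below 0, and the counts were 3 lower and 0 higher. Without control replicate 1 the counts were 1 lower and 4 higher. The cause of the low values in control replicate 3 was not tested.

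**Figure D4:**
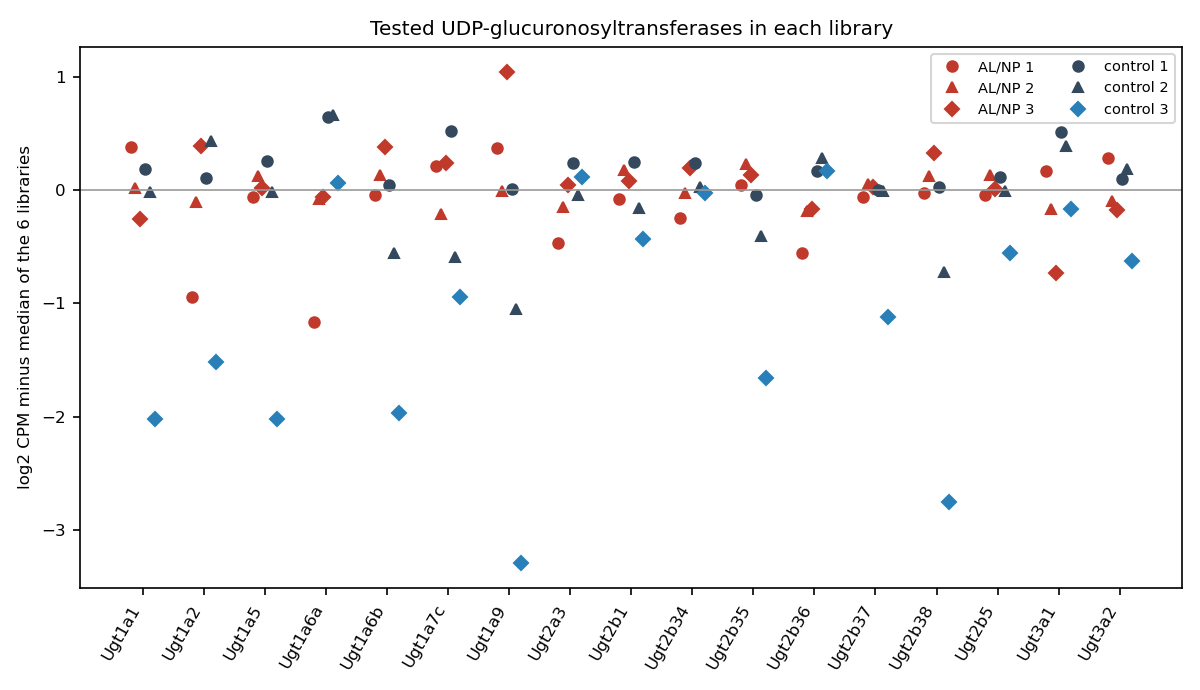
Log2 CPM of each tested UDP-glucuronosyltransferase in each library, minus the median of the 6 libraries for that gene, with AL/NP in red and control in blue shades. The light blue diamonds of control replicate 3 are lowest in 12 of 17 genes, but not in Ugt2b36, Ugt1a6a, Ugt2a3, Ugt2b34 or Ugt3a1.

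Ugt2b enzymes glucuronidate steroids, bile acids and drugs, and their genes lie in a cluster on chromosome 5. Ugt2b36 (chr5:87065927-87092555, minus strand) had 233, 299 and 303 CPM in AL/NP and 384, 416 and 384 CPM in controls. All controls lay above all AL/NP values, and control replicate 3 did not differ from the other controls here. The log2 fold change was -0.50 (SE 0.166), with an unadjusted p of 0.0147 and an adjusted p of 0.179 in edgeR. With 1 library left out it ranged from -0.57 to -0.39, and the unadjusted p rose to 0.0526.

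Ugt2b5, at about the same per-kb level, had 306, 346 and 318 CPM in AL/NP and 342, 312 and 214 CPM in controls. The groups overlapped, and the log2 fold change of 0.16 (SE 0.199) became -0.02 without control replicate 3. Other genes hold 41.7% of its 50-base words, and Ugt2b38 alone holds 34.8%. Ugt2b36 shares little, since 0.29% of its own words occur in any other gene. Ugt2b1 had 78.5, 93.8 and 87.8 CPM against 98.6, 74.2 and 61.7 CPM, again with control replicate 3 lowest. Its log2 fold change was 0.15 (SE 0.193), and 0.0026 without that library. Ugt2b34 had 140, 163 and 190 CPM against 196, 169 and 163 CPM, and Ugt2a3 had 29.4, 36.6 and 41.9 CPM against 48.0, 39.4 and 44.1 CPM. Both overlapped, with log2 fold changes of -0.10 (SE 0.169) and -0.29 (SE 0.169); that of Ugt2a3 was -0.16 without AL/NP replicate 1. Ugt2b35, with 15.2, 17.3 and 16.2 CPM in AL/NP and 14.3, 11.2 and 4.69 CPM in controls, was the one member whose AL/NP values all lay above the controls. Its log2 fold change was 0.69 (SE 0.337, unadjusted p 0.0719), and 0.35 without control replicate 3, its lowest library. It was named here after its values were seen.

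The Ugt1a genes of chromosome 1 each have their own first exon and share the later ones. Counts of single Ugt1a genes therefore depend on how reads in the shared exons were assigned. Ugt1a6a, whose product glucuronidates simple phenols, had 3.89, 8.26 and 8.36 CPM in AL/NP and 13.7, 13.8 and 9.10 CPM in controls. The AL/NP values lay below the controls, though AL/NP replicates 2 and 3 came close to control replicate 3. Its log2 fold change was -0.83 (SE 0.302), with an unadjusted p of 0.0230 and an adjusted p of 0.200 in edgeR, and it was -0.55 without AL/NP replicate 1. Ugt1a9 was the higher one, with a log2 fold change of 1.44 (SE 0.627, unadjusted p 0.0481). Its levels were under 4 CPM in every library, its groups overlapped, and the log2 fold change was 0.96 without control replicate 3 and 2.28 without control replicate 1. Ugt1a1, the enzyme that conjugates bilirubin, had 24.99, 19.5 and 16.1 CPM in AL/NP and 21.9, 18.9 and 4.72 CPM in controls, named here after its values were seen. The low value of control replicate 3 set its direction: the log2 fold change was 0.41 with that library and -0.02 without it.

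Among sulfotransferases, 9 of 12 tested members had a fold change below 0, with a median of -0.21, and 2 were lower at an unadjusted p under 0.05 (16.7%, beside 19.6% of all genes). Sult1d1 (chr5:87554645-87569027, minus strand), which sulfates catecholamines, had 29.3, 26.1 and 32.4 CPM in AL/NP and 44.4, 50.4 and 57.1 CPM in controls. Every AL/NP value lay below every control value, and the controls spread more widely than the AL/NP libraries. The log2 fold change was -0.79 (SE 0.156), with an unadjusted p of 0.000745 and an adjusted p of 0.0981 in edgeR, the only adjusted p under 0.1 among the members. At that level 0.891% of all genes were found. The DESeq2 adjusted p was 0.00225.

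Sult2a8, a sulfotransferase of bile acids in mouse liver, had 1.63, 0.633 and 1.42 CPM in AL/NP and 2.81, 2.54 and 8.54 CPM in controls. The groups did not overlap, and control replicate 3 was far above the other controls. The log2 fold change of -1.92 (SE 0.543, unadjusted p 0.00668) became -1.13 without control replicate 3. Of the other genes of this cluster, Sult2a1 had 53.0, 30.9 and 37.6 CPM in AL/NP and 56.1, 39.7 and 25.7 CPM in controls. Sult2a2 had 14.1, 10.7 and 12.8 CPM against 22.0, 10.8 and 12.6 CPM, and Sult2a5 had 16.1, 7.68 and 7.11 CPM against 12.7, 7.43 and 10.7 CPM. All 3 overlapped, with log2 fold changes of 0.00 for Sult2a1 and Sult2a5 (SE 0.294 and 0.335) and -0.27 for Sult2a2 (SE 0.265). Of their 50-base words, 33.2% (Sult2a1), 62.1% (Sult2a2) and 34.5% (Sult2a5) also occur in other genes, mostly each other and Sult2a4, so reads could be split between them. Sult1a1 had 215, 153 and 170 CPM in AL/NP and 231, 187 and 207 CPM in controls, which overlapped at a log2 fold change of -0.22 (SE 0.178). That value was -0.37 when AL/NP replicate 1 was left out, -0.12 when it was replicate 2 of that group, and -0.14 when it was control replicate 1.

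Several sulfotransferases are known to differ between the sexes in mouse liver. Of 14 genes known to be higher in female liver, 6 were lower and 0 higher at an unadjusted p under 0.05 (42.9%, beside 19.6% of all genes), and their sum was 450 to 618 CPM in AL/NP and 795 to 915 CPM in controls. Of 12 genes known to be higher in male liver, 8 were tested, and 1 was higher and 0 lower at that level (12.5%). The sum of the 12 was 1114 to 1608 CPM in AL/NP and 693 to 1026 CPM in controls. The 8 tested genes did not share this direction: 4 had a fold change above 0 and 4 below, with a median log2 fold change of 0.03. In the female list 8 lay below 0 and 6 above, with a median of -0.45. In the female list edgeR called 1 gene, which was lower and whose values are not reported here, and DESeq2 called 5, all lower. In the male list edgeR called 0 and DESeq2 1, which was higher. Neither sum overlapped between groups. The part of this difference in the sulfotransferase values was not tested.

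Genes that supply, regulate or follow conjugation were read in 9 lists, in none of which edgeR called a gene. DESeq2 called 1 higher and 0 lower for glutathione supply, 0 and 1 for sulfate supply, 1 and 3 for other conjugation enzymes, 1 and 1 for hydrolases and reductases, 0 and 2 for export pumps, 0 and 1 for transcription factors, 0 and 2 for AhR, CAR and PXR targets, and 0 in the other lists, beside 5.07% of all genes. The shares of tested genes with an unadjusted p under 0.05, beside 19.6% of all genes (10.3% lower and 9.37% higher), follow with each list. Of 9 export pumps for conjugates, 5 were lower and 0 higher at an unadjusted p under 0.05 (55.6%), with a median log2 fold change of -0.47. Abcc4, a basolateral pump for bile acid and sulfate conjugates, had 4.38, 4.35 and 4.24 CPM in AL/NP and 9.16, 10.2 and 11.2 CPM in controls. These groups were far apart, and Abcc4 had a log2 fold change of -1.24 (SE 0.170) and an adjusted p of 0.0579 in edgeR. Abcc6 (-1.28) and Abcg2 (-0.47) were the next by p. DESeq2 called Abcc4 and Abcc6.

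Of 22 tested genes in the transcription factor list, 6 were lower and 0 higher at an unadjusted p under 0.05 (27.3%), with a median of -0.34. The list also holds Ghr and Keap1, which are not transcription factors, and Ghr (-0.62) was among the 6. Nr1i3, which encodes the drug sensor CAR, had 16.8, 34.0 and 65.8 CPM in AL/NP and 151, 124 and 111 CPM in controls. No AL/NP value reached the controls, and the log2 fold change was -1.73 (SE 0.430) with an adjusted p of 0.133 in edgeR and 0.000912 in DESeq2. Ppara and Esr1 followed at -0.75 and -0.69. Of 9 target genes of AhR, CAR or PXR, all oxidases but Tiparp, 2 were lower and 0 higher (22.2%), with a median of -0.03. Those with the smallest p were Cyp1a1 (-2.47), Cyp2a5 (-0.94) and Cyp2c55 (-1.36, unadjusted p 0.0515). Cyp1a1 was -1.32 without control replicate 3, and Cyp2c55 was -2.38 without AL/NP replicate 3. Of 13 other NRF2 targets, 3 were higher and 0 lower (23.1%), with a median of 0.12, namely Pgd (0.45), Txnrd1 (0.52) and Hmox1 (0.43). The unadjusted p of each was above 0.05 with 1 library left out: Pgd was 0.29 without control replicate 3, Txnrd1 0.31 without AL/NP replicate 1, and Hmox1 0.24 when AL/NP replicate 3 was left out.

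Of 14 other conjugation enzymes tested, 7 were lower and 1 higher at an unadjusted p under 0.05 (57.1%), with a median of -0.62. The smallest p belonged to Inmt (-2.78) and Tpmt (-0.83), both methyltransferases, and to Keg1 (-2.32), an acyltransferase of the glycine conjugation family. Inmt had 14.6, 15.3 and 11.4 CPM in AL/NP and 64.2, 32.6 and 188 CPM in controls, so the groups were apart while the controls spread widely; its log2 fold change was -1.82 without control replicate 3. Of 14 hydrolases and reductases, 2 were higher and 4 lower (42.9%), with a median of -0.17, and Ces1d (-0.75), Por (0.51) and Nqo2 (-0.47) had the smallest p.

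The cofactor lists gave no common direction. Of 18 genes of glutathione supply and turnover, 2 were higher and 3 lower at an unadjusted p under 0.05 (27.8%, median 0.09), led by Chac1 (2.47), which cleaves glutathione, Chac2 (-0.75) and Cth (-0.99), which makes cysteine. Chac1 had 13.9, 2.48 and 3.25 CPM in AL/NP, and its value was 1.29 without AL/NP replicate 1, while Cth was -0.48 without control replicate 3. Of 8 genes of UDP-glucuronic acid supply and glucuronide cleavage, 1 was higher and 1 lower (25%, median 0.13), namely Gusb (0.74), the lysosomal glucuronidase, and Slc35d1 (-0.50), and Pgm1 came next by p (0.40, unadjusted p 0.1002). Slc35d1 was -0.33 without control replicate 1, with an unadjusted p of 0.141, and Pgm1 was 0.19 without control replicate 3. Of 9 genes of sulfate supply, 1 was higher and 3 lower (44.4%, median 0.00). Tst (-0.82), Papss2 (-1.10), which makes the active sulfate donor, and Slc26a2 (0.58) led, and Papss2 was -0.68 without control replicate 3. Sts, the list's gene of sulfate ester cleavage, matched no row.

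**Figure D5:**
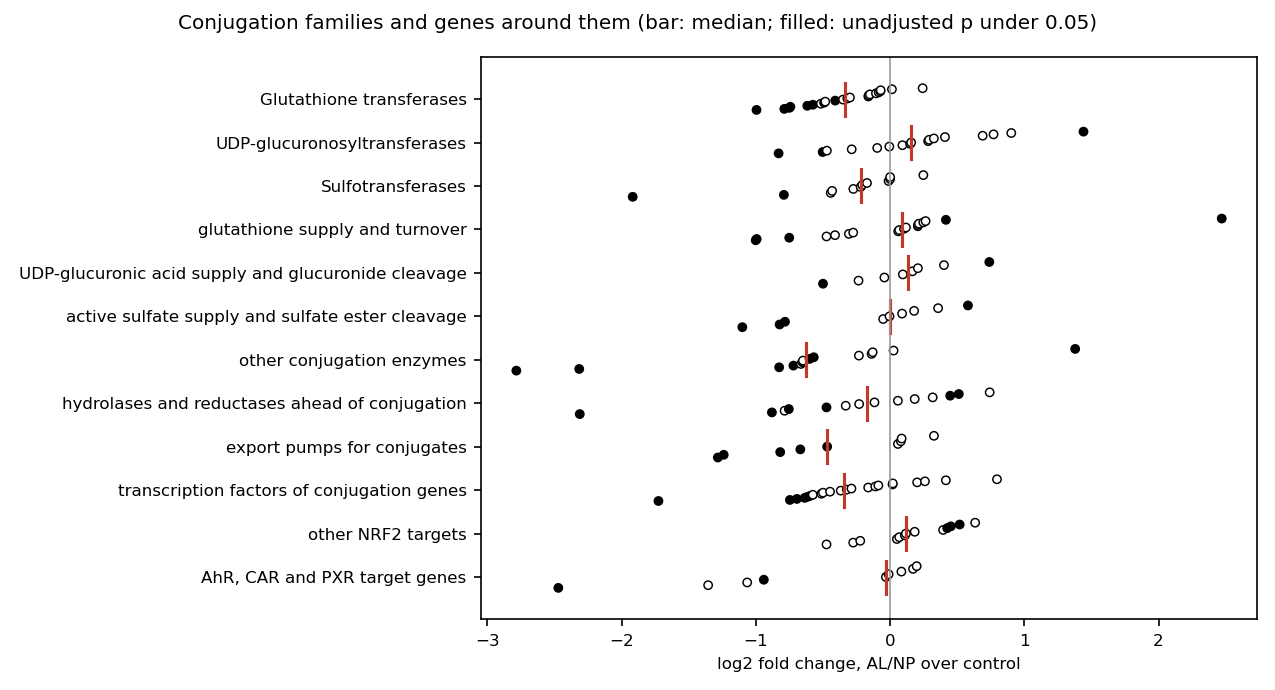
Log2 fold changes of AL/NP over control for the tested genes of the 3 conjugation families and of the 9 lists around them; each circle is a gene, filled where the unadjusted p is under 0.05, and the bar is the median. Glutathione transferases (-0.33), other conjugation enzymes (-0.62), export pumps (-0.47) and the transcription factor list (-0.34) have the medians farthest below 0.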

How the data were processed

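The authors deposited raw counts per Ensembl gene for 6 libraries; per the submitters' processing notes the tools were STAR 2.6.1a, featureCounts and DESeq2 1.26.0 on GRCm38. Strand setting and the treatment of reads with several matches are not given in the sources used here. Symbols, exon lengths and coordinates came from GENCODE M21 and promoters from RefSeq (GRCm38.p6). Groups were compared with edgeR 4.0.16 in R 4.3.3 (quasi-likelihood, robust, TMM, filterByExpr with a minimum count of 10), adjusted by Benjamini-Hochberg over 15939 genes, threshold 0.05. DESeq2 1.42.0 was run as an alternative, as were other scalings and filters, a replicate block, left-out libraries, no robust estimation and leaving out the 10 most abundant genes. The tests were tested on simulated data. A level of 3 counts is 0.0826 to 0.104 CPM, which covers counting error only. No pair of libraries was close enough to be a duplicate (chi-square per degree of freedom at least 30.6).

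Members and lists were chosen with earlier results of these data known. Values per library were given for the 5 tested members per family with the highest mean CPM and for every tested member with an unadjusted p under 0.05 and no overlap; the other members under 0.05 by fold change; and in each pathway list the 3 genes with the smallest p.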

Additional observations from a re-analysis of the deposited data

How the results depend on the processing

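edgeR called 13 genes in all; it called 0 with library totals, 0 with at least 50 counts in 3 libraries, 0 without robust estimation, 747 with every gene of at least 1 count, 23 with the replicate block, and between 0 and 4 with 1 library left out, while DESeq2 called 844. With every gene of at least 1 count edgeR called 4 members: Mgst3, Gstm2, Gstt2 and Sult1d1. Members higher at an unadjusted p under 0.05 numbered 1; there were 0 with library totals, 0 with either filter, 2 with the replicate block, 2 with DESeq2, and 0 to 4 with 1 library left out. Lower members numbered 12; there were 6 with library totals and 9 to 13 with 1 library left out. The members' median lay between -0.25 and -0.10 with 1 library left out. The deviations of same-numbered libraries from their group means correlated weakly (r = -0.04, 0.02 and 0.09). AL/NP replicate 1 correlated best with control replicate 2 (0.12). With 3 libraries per group, these values cannot show whether libraries were paired. Library totals turned Gstp2 to 0.0559, Gstp1 to 0.0674 and Ugt2b34 to 0.0401. The filter of at least 1 count turned Sult2a1 to -0.00404 and Sult2a5 to -0.00225, and Sult2a5 was -0.00323 with at least 50 counts and -0.0613 with the replicate block. With 1 library left out, Gstp2 ranged from -0.186 to 0.0701, Gstp1 from -0.163 to 0.0383, Mgst1 from -0.26 to 0.172, Sult2a2 from -0.481 to 0.0992, Sult2a1 from -0.244 to 0.308, Sult2a5 from -0.473 to 0.207, Ugt2b5 from -0.0223 to 0.294, Ugt2b34 from -0.213 to 0.00766. The cause of these changes was not tested. In all, 31 of 51 members kept their direction in every alternative (15 Gst, 11 Ugt and 5 Sult). At this depth, the 15 members that did not pass the filter had at most 77 counts over the 6 libraries. The lowest total among tested members was 51. The cause of the low counts was not tested.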
